A study of Mus musculus with 40 samples.

Results

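Resident macrophage genes are described here over 8 groups of mouse brown adipose tissue. The set holds 10 genes, Adgre1, Cd68, C1qa, C1qb, C1qc, Mrc1, Cd163, Timd4, Lyve1 and Folr2, chosen by name and matched through their Ensembl identifiers to 10 of the 52636 genes in the count table. All 10 were among the 17079 genes with enough reads to be tested. Bulk RNA sequencing covered 40 male C57BL/6 mice, 5 in each group, aged 10 to 14 weeks in the sample labels and 10 to 12 weeks in the series text. Every mouse received 1 intraperitoneal antibody dose. Control mice received the anti-ragweed isotype antibody at 40 mg/kg, and Jag antibody mice received blocking antibodies against Jag1 and Jag2, which activate Notch receptors on neighbouring cells, at 20 mg/kg each. Tissue was taken 15 h, 5 d or 7 d later (control 15 h, Jag 15 h, control 5 d, Jag 5 d, control 7 d and Jag 7 d). In the remaining groups, called control hormone and Jag hormone, mice also received the thyroid hormones T4 (1 ug/g) and T3 (0.05 ug/g) daily from day 2 and were sampled at 7 d. The control mice are numbered 1 to 5 and the Jag antibody mice 6 to 10 in each group.

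Macrophages reside in adipose tissue, where they take up dying cells, lipid and debris and stay in contact with vessels and nerves. Pan-macrophage genes such as Adgre1 and Cd68 are shared by resident cells and by cells newly derived from blood monocytes. Cd163, Timd4, Lyve1 and Folr2 are used as markers of longer-lived, often perivascular, resident cells. The complement protein C1q, made mainly by tissue macrophages, is built from chains encoded by C1qa, C1qb and C1qc, and it tags apoptotic cells and immune complexes. In whole tissue, fewer macrophages and less RNA per macrophage cannot be told apart.

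The libraries held 12217623 to 36511893 counts. Brown adipocyte genes (Ucp1, Cidea, Adipoq, Plin1, Elovl3 and Cox8b) summed to 2570 to 42700 CPM (counts scaled for library size), so the tissue's defining markers were present in every library. Skeletal muscle genes varied far more, from 0.878 to 176000 summed CPM. Control mice 2 and 3 at 15 h stood apart in their blood-cell genes: the mean log2 CPM of 6 monocyte genes was 7.06 and 6.39, and that of 5 neutrophil genes was 8.35 and 4.40. Where leaving out those mice or a muscle covariate ended a call of a member, both values are given.

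Compared per exon length over the 40 mice, the C1q chains were the most abundant members. The median was 68.8 RPKM (reads scaled for exon length and library size) for C1qb, 49.1 for C1qa and 20.6 for C1qc. Cd68, a lysosomal membrane protein, had a median of 18 RPKM. Adgre1, which encodes the F4/80 surface receptor, stood at 8.38, Mrc1, the mannose receptor CD206, at 7.14, and Folr2, folate receptor beta, at 6.67. The scavenger receptor for haemoglobin complexes, Cd163, stood at 2.45 RPKM and the hyaluronan receptor Lyve1, which lymphatic vessels also express, at 1.39. Timd4, a receptor for phosphatidylserine on dying cells, was close to the detection limit, with a median of 0.229 RPKM, 0 to 128 counts per library and 0 counts in 4 mice.

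The levels by group are given as log2 CPM (prior count 2), mean ± SD of 5 mice, from the highest group to the lowest. The pan-macrophage genes Adgre1 and Cd68 come first, followed by Mrc1. Adgre1 averaged 5.86 ± 0.40 in the control hormone group, 5.36 ± 0.89 in Jag hormone, 5.31 ± 0.82 in control 15 h, 4.84 ± 0.38 in Jag 15 h, 4.82 ± 0.49 in control 5 d, 4.47 ± 1.29 in Jag 5 d, 3.51 ± 1.08 in Jag 7 d and 2.84 ± 0.65 in control 7 d. For Cd68, the means were 6.06 ± 0.77 in the control hormone group, 5.73 ± 1.69 in control 15 h, 5.57 ± 0.81 in Jag hormone, 4.70 ± 0.58 in control 5 d, 4.36 ± 0.43 in Jag 15 h, 4.27 ± 1.01 in Jag 7 d, 3.95 ± 0.83 in Jag 5 d and 3.48 ± 0.54 in control 7 d. Mrc1 ran through 6.40 ± 0.43 in the control hormone group, 6.27 ± 1.23 in control 15 h, 6.25 ± 0.72 in Jag hormone, 5.46 ± 0.69 in control 5 d, 4.93 ± 1.07 in Jag 15 h, 4.87 ± 0.46 in Jag 5 d, 4.80 ± 0.84 in Jag 7 d and 3.79 ± 0.70 in control 7 d. All 3 genes were highest with hormone in control mice and lowest in control mice at 7 d.

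The C1q genes were highest in control mice at 5 d. C1qa averaged 6.66 ± 0.95 in the control 5 d group, 6.41 ± 0.54 in control hormone, 5.92 ± 0.61 in Jag hormone, 5.48 ± 0.13 in control 15 h, 5.44 ± 0.92 in Jag 7 d, 5.44 ± 1.44 in Jag 5 d, 5.37 ± 0.57 in control 7 d and 5.35 ± 0.90 in Jag 15 h. C1qb gave 6.92 ± 0.70 in the control 5 d group, 6.86 ± 0.55 in control hormone, 6.58 ± 0.69 in Jag hormone, 6.01 ± 0.45 in control 15 h, 5.91 ± 1.15 in Jag 5 d, 5.79 ± 0.63 in Jag 15 h, 5.72 ± 0.86 in Jag 7 d and 5.35 ± 0.57 in control 7 d. For C1qc the order was 6.51 ± 0.97 in the control 5 d group, 6.05 ± 0.59 in control hormone, 5.64 ± 0.64 in Jag hormone, 5.38 ± 1.20 in Jag 5 d, 5.29 ± 0.86 in Jag 7 d, 5.11 ± 0.73 in control 7 d, 5.06 ± 0.17 in control 15 h and 4.94 ± 0.71 in Jag 15 h. Their spread was narrow in control mice at 15 h, where the SD was 0.13 for C1qa and 0.17 for C1qc, and wide in Jag antibody mice at 5 d.

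Among the markers of longer-lived resident cells, Cd163 averaged 4.55 ± 1.04 in the Jag hormone group, 4.33 ± 1.07 in control hormone, 4.08 ± 1.07 in control 5 d, 3.73 ± 1.05 in control 15 h, 3.34 ± 1.64 in Jag 15 h, 3.33 ± 1.60 in Jag 7 d, 2.93 ± 0.94 in Jag 5 d and 2.25 ± 0.54 in control 7 d. Folr2 averaged 4.68 ± 0.90 in the control 5 d group, 4.68 ± 0.56 in control hormone, 3.94 ± 0.99 in Jag hormone, 3.38 ± 0.87 in Jag 15 h, 3.25 ± 0.71 in control 15 h, 2.76 ± 1.49 in Jag 7 d, 2.58 ± 0.59 in Jag 5 d and 2.41 ± 0.43 in control 7 d. Lyve1 reached 3.49 ± 1.77 in the Jag 15 h group, 3.12 ± 1.73 in control hormone, 2.59 ± 0.83 in control 15 h, 2.40 ± 0.94 in Jag hormone, 1.99 ± 0.41 in control 5 d, 1.56 ± 0.48 in Jag 5 d, 1.31 ± 0.21 in control 7 d and 1.29 ± 1.33 in Jag 7 d. Timd4 gave 1.18 ± 1.22 in the Jag 15 h group, 0.39 ± 1.12 in control 15 h, 0.14 ± 0.50 in control 5 d, -0.24 ± 1.06 in control hormone, -1.33 ± 0.72 in Jag 7 d, -1.64 ± 1.09 in control 7 d, -1.75 ± 1.19 in Jag hormone and -2.61 ± 0.74 in Jag 5 d. The lowest group was control 7 d for Cd163 and Folr2, Jag 7 d for Lyve1 and Jag 5 d for Timd4. Of the 70 steps between neighbouring groups, 4 exceeded the larger of the 2 SDs and 0 separated groups without overlap between mice. The groups in these orders were sorted by their own means, which keeps such steps small. The count therefore does not show how gradual the orders are.

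**Figure D1:**
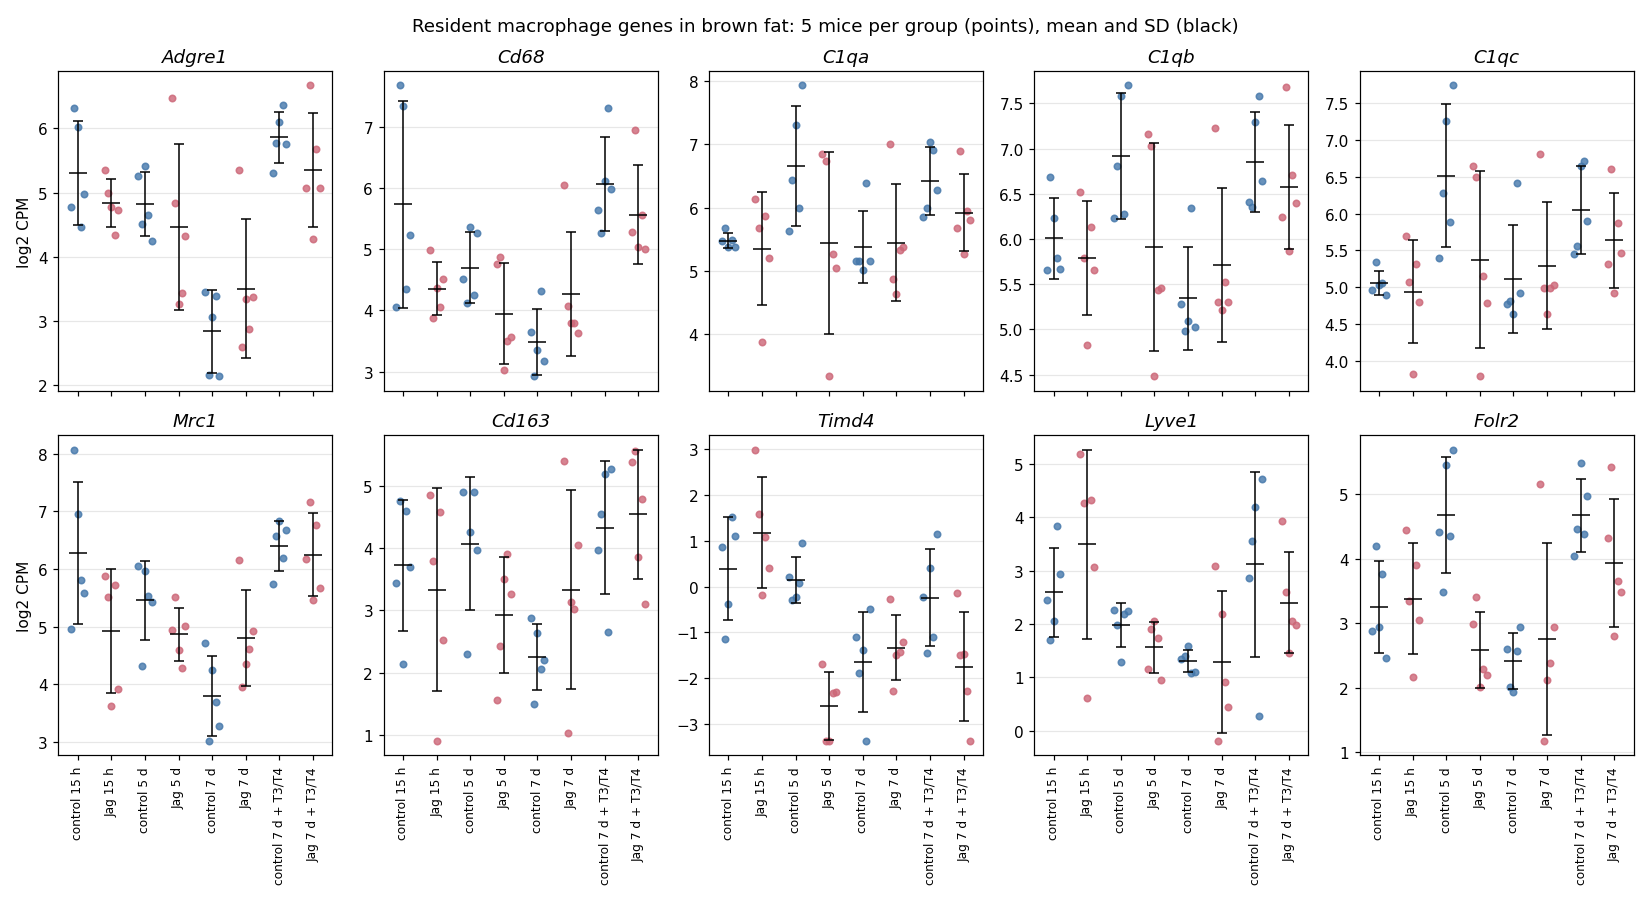
Level of each of the 10 members in every mouse (log2 CPM, prior count 2) by group; points are mice and black marks are the mean and SD of 5 mice. Control 7 d is the lowest of the 8 groups for Adgre1, Cd68, C1qb, Mrc1, Cd163 and Folr2, and the mice of most groups overlap with those of neighbouring groups.

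The first comparison asked what T4 and T3 did in control mice at 7 d. With hormone, 7 of the 10 members rose: Adgre1, Cd68, Mrc1, C1qb, Cd163, Lyve1 and Folr2 (edgeR quasi-likelihood test, Benjamini-Hochberg adjusted over all genes tested, threshold 0.05). Hormone moved much of the transcriptome: 43.2% of all genes tested were called and 20.3% were higher. In the same comparison 5 members did not overlap between the groups with every hormone mouse higher, against 14.6% of all genes. The median log2 change over the members was 2.30, and over all genes 0.04.

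Adgre1 stood at 3.46, 2.17, 3.06, 3.39 and 2.14 log2 CPM in control mice 1 to 5 and at 5.30, 5.77, 6.10, 6.37 and 5.76 in the hormone mice. Every hormone mouse lay well above every control mouse. The log2 fold change was 2.97 (SE 0.56, adjusted p = 0.000123 by edgeR), the largest of the 10 members. Cd68 was at 3.64, 2.92, 3.35, 4.32 and 3.17 in controls and 5.64, 5.27, 6.11, 7.31 and 5.99 with hormone, again without overlap. Its log2 fold change was 2.70 (SE 0.61, adjusted p = 0.000712 by edgeR). Mrc1 was at 4.72, 3.02, 4.25, 3.70 and 3.28 in controls and 5.75, 6.58, 6.83, 6.19 and 6.67 with hormone. These groups were also separate, and the log2 fold change was 2.53 (SE 0.52, adjusted p = 0.000291 by edgeR).

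Folr2 rose from 2.61, 2.02, 1.93, 2.57 and 2.95 to 4.05, 4.47, 5.49, 4.39 and 4.97 log2 CPM, with no overlap between groups, and the log2 change was 2.32 (SE 0.58, adjusted p = 0.00176 by edgeR). Its exons share 975 bp with the antisense gene Gm10602, and whether counting used the strand is not given in the sources used here, so its values may hold reads of both. Lyve1 was at 1.35, 1.40, 1.59, 1.09 and 1.11 in controls and 2.86, 3.56, 4.20, 0.28 and 4.71 with hormone. Hormone mouse 4 lay below every control mouse, and the other 4 lay above them. The log2 fold change of Lyve1 was 2.42 (SE 0.66, adjusted p = 0.00374 by edgeR). Cd163 was at 2.87, 1.50, 2.64, 2.05 and 2.20 and 3.98, 4.55, 5.20, 2.66 and 5.27, where hormone mouse 4 fell within the control range. Its log2 fold change was 2.28 (SE 0.69, adjusted p = 0.00812 by edgeR).

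Of the C1q genes, C1qb passed and the other 2 did not. C1qb rose from 5.28, 4.98, 5.09, 6.34 and 5.03 to 6.41, 6.35, 7.30, 7.58 and 6.64 log2 CPM, with the highest control mouse, mouse 4, just below the lowest hormone mouse. Its log2 fold change was 1.50 (SE 0.46, adjusted p = 0.00881 by edgeR). C1qa and C1qc stood at 1.02 (SE 0.50, adjusted p = 0.0995 by edgeR) and 0.87 (SE 0.49, adjusted p = 0.149 by edgeR). Timd4, at 1.55 (SE 0.73, adjusted p = 0.0836 by edgeR), did not pass either. The 7 calls held in each of 11 alternative analyses and with each of the 10 mice left out in turn. Scaling by library totals or offsets for gene length and GC content brought all 10 members past the threshold. Library measures moved with this comparison too. The TMM scaling factor was 0.647 to 0.926 in control 7 d and 1.01 to 1.18 in control hormone libraries. Mitochondrial transcripts took 15.9 to 25.2% and 10.8 to 15.5% of counts. The slope of each library's log2 CPM, relative to the mean of all libraries, on log2 exon length was -0.542 to -0.0593 and 0.0407 to 0.246. Marker lists of other cells moved with this comparison as well. The 6 monocyte genes summed to 5.3 to 14.1 CPM in control 7 d and 42.1 to 120.0 CPM in control hormone mice. The 6 lymphatic endothelial genes summed to 8.61 to 16.0 and 17.4 to 43.5 CPM. Their part in the result was not tested.

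In Jag antibody mice at 7 d, 1 of the 10 members, Adgre1, rose with hormone, where 4.29% of all genes tested were higher. Adgre1 stood at 5.35, 2.60, 3.34, 2.88 and 3.37 log2 CPM in mice 6 to 10 without hormone and at 5.08, 6.67, 4.28, 5.68 and 5.08 with it. Mouse 6 without hormone was as high as most of the hormone mice, and the groups overlapped. The log2 fold change was 1.69 (SE 0.53, adjusted p = 0.038 by edgeR). The call was lost with any one of Jag 7 d mice 7, 8, 9 and 10 or Jag hormone mice 7 and 9 left out, with adjusted p from 0.0022 to 0.156 over the 10 omissions. Without Jag 7 d mouse 6, 5 members were called. Mrc1, at 1.37 (SE 0.50, adjusted p = 0.0724 by edgeR), and Cd68, at 1.16 (SE 0.57, adjusted p = 0.188), did not pass. The median over the members was 0.81.

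The difference between these hormone responses was tested directly, as an interaction of antibody and hormone. Of the 10 members, 0 were called by edgeR, 0 had an unadjusted p under 0.05 and 0 were called by DESeq2, against 0.00586% of all genes tested. The 10 estimates, hormone change in Jag antibody mice minus that in control mice, were all negative, from -0.66 for C1qc to -1.84 for Timd4, with a median of -1.35. Folr2 had the lowest adjusted p, 0.412 (-1.56, SE 0.78, by edgeR). For Adgre1 the estimate was -1.28 (SE 0.74), so neither equal responses nor a weaker one with the Jag antibodies was shown. The members' changes with each antibody stand side by side in the plot of hormone changes.

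**Figure D2:**
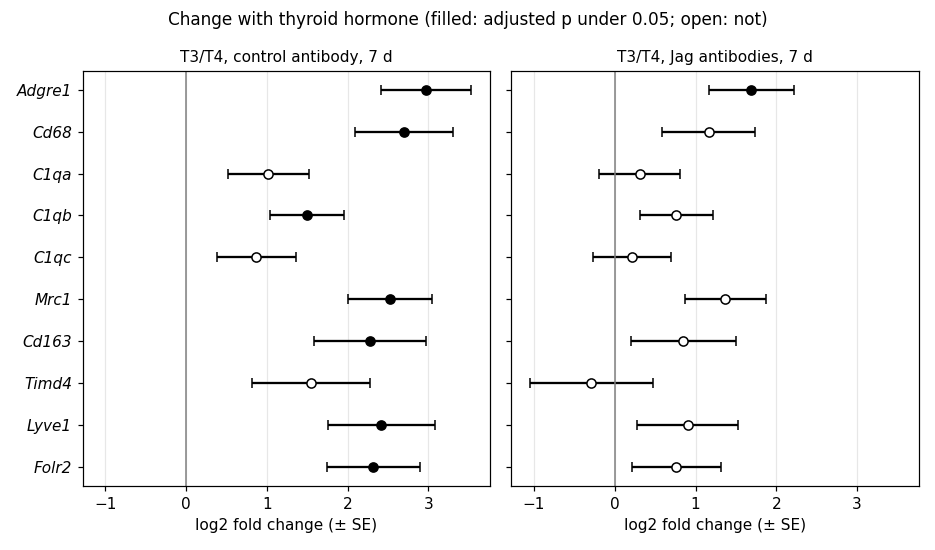
Log2 fold change with T4 and T3 at 7 d for each member, with standard errors, in control and in Jag antibody mice. In control mice the 10 estimates run from 0.87 to 2.97, and in Jag antibody mice from -0.29 to 1.69.

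The antibody effect at 5 d was the second comparison, and it asked what blocking Jag1 and Jag2 did to the members without hormone. Timd4 and Folr2 fell, 2 of 10 members, where 5.93% of all genes tested were lower. Timd4 stood at 0.20, -0.29, -0.23, 0.08 and 0.96 log2 CPM in control mice and -1.69, -3.37, -3.37, -2.33 and -2.30 in Jag antibody mice. These values rest on 35, 16, 22, 36 and 22 counts against 4, 0, 0, 2 and 4 counts. The groups did not overlap for Timd4 and Folr2, as for 3.16% of all genes in that direction. The log2 fold change was -3.51 (SE 0.83, adjusted p = 0.00963 by edgeR). It passed with each mouse left out in turn.

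Folr2 was at 4.42, 3.48, 5.45, 4.36 and 5.69 log2 CPM in control mice and 2.99, 3.41, 2.02, 2.30 and 2.20 in Jag antibody mice at 5 d. Every Jag antibody mouse lay below every control mouse, by a small margin for mouse 7 against control mouse 2. The log2 fold change was -2.23 (SE 0.57, adjusted p = 0.0157 by edgeR), and without control mouse 5 the adjusted p was 0.0613. Of the other members 7 had estimates below 0 and did not pass, and Adgre1 stood at 0.09 (SE 0.51). Cd163 stood at -1.19 (SE 0.66, adjusted p = 0.283), C1qc at -1.03 (SE 0.49, adjusted p = 0.197) and C1qa at -0.99 (SE 0.50, adjusted p = 0.233). The median over the members was -0.89, and over all genes 0.04.

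Skeletal muscle genes moved with the antibody at 5 d. A score of 8 muscle genes (mean log2 CPM) was 5.1 to 13.7 in control mice and -2.69 to 2.2 in Jag antibody mice, with no overlap, and their summed level ran from 1020 to 176000 CPM in control mice and 0.878 to 43.9 CPM in Jag antibody mice. Of the 8 genes, 6 fell, where 5.93% of all genes tested were lower, with a median log2 change of -11.59 over all 8. Each of the 6 calls was lost without control mouse 5, or without Jag mouse 6, 8, 9 or 10, with estimates still at -9.23 to -12.70. With the muscle score as a covariate, Timd4 stood at -2.02 (adjusted p = 0.261 by edgeR), Folr2 at -0.96 (adjusted p = 0.532) and 0 members were called (1 at an unadjusted p under 0.05). Since the score separates the groups, muscle content and antibody cannot be told apart at 5 d.

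**Figure D3:**
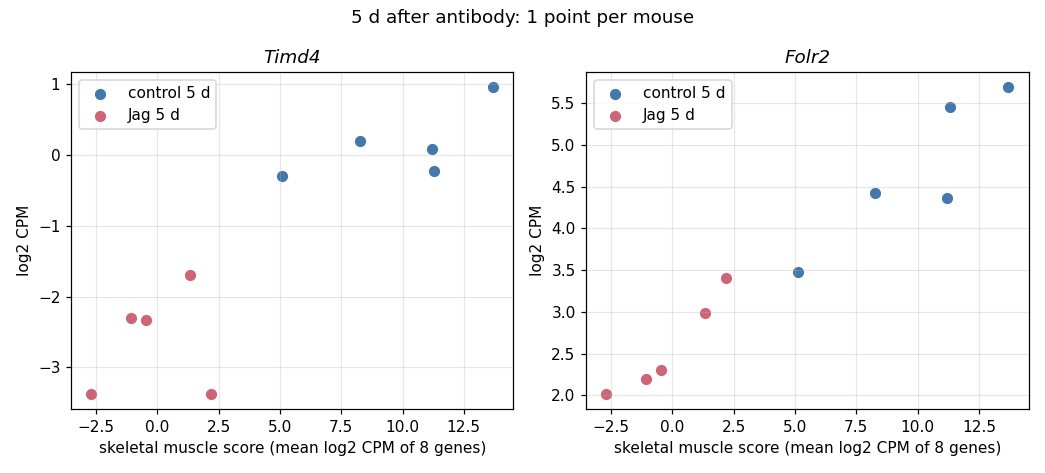
Timd4 and Folr2 (log2 CPM) at 5 d against the skeletal muscle score of each mouse (mean log2 CPM of 8 genes), with control mice in blue and Jag antibody mice in red. The scores of the groups do not overlap, at 5.1 to 13.7 for control and -2.69 to 2.2 for Jag antibody mice.

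At 15 h, 0 of the 10 members were called by edgeR, 3 had an unadjusted p under 0.05 and DESeq2 called 1, Cd68, while 1.14% of all genes tested were called. Cd68 stood at 4.05, 7.68, 7.35, 4.35 and 5.24 log2 CPM in control mice and 4.99, 3.87, 4.36, 4.06 and 4.51 in Jag antibody mice. Control mice 2 and 3 were the high ones, and the other 3 lay within or near the Jag antibody range. The log2 fold change was -2.06 (SE 0.59, adjusted p = 0.07 by edgeR) with all mice and -0.23 without control mice 2 and 3. Mrc1 was at 4.96, 8.07, 6.95, 5.81 and 5.59 and 5.88, 5.51, 3.62, 5.72 and 3.92, with the same mice highest. Its log2 fold change was -1.52 (SE 0.50, adjusted p = 0.12 by edgeR), and -0.29 without them. Lyve1, by contrast, was at 2.45, 1.70, 2.06, 3.84 and 2.93 in control and 5.18, 4.27, 0.62, 4.33 and 3.06 in Jag antibody mice, with a change of 1.31 (SE 0.63, adjusted p = 0.391 by edgeR). Monocyte genes summed to at most 1240 CPM and neutrophil genes to at most 2530 CPM in control mice at 15 h, against 113 and 164 CPM in Jag antibody mice.

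At 7 d without hormone, all 10 estimates were above 0 in Jag antibody mice, from 0.12 for Timd4 to 1.64 for Cd163 (with the muscle covariate C1qa, Timd4 and Lyve1 were below 0). Of the 10, 0 were called by edgeR, 2 had an unadjusted p under 0.05 and DESeq2 called 0, against 2.5% of all genes tested. Cd163 was at 2.87, 1.50, 2.64, 2.05 and 2.20 log2 CPM in control mice and 5.40, 1.03, 3.14, 3.03 and 4.06 in Jag antibody mice. Mouse 6 was the highest and mouse 7 the lowest of all 10. The change was 1.64 (SE 0.68, adjusted p = 0.173 by edgeR). Mrc1, at 1.09 (SE 0.50, adjusted p = 0.211 by edgeR), was the other gene below 0.05 before adjustment. With hormone at 7 d, 0 members were called by edgeR, 1 had an unadjusted p under 0.05 (Timd4, -1.72, SE 0.72, adjusted p = 0.304) and DESeq2 called 0, while 1.14% of all genes tested were called. The estimates lay between -1.72 and 0.22.

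**Figure D4:**
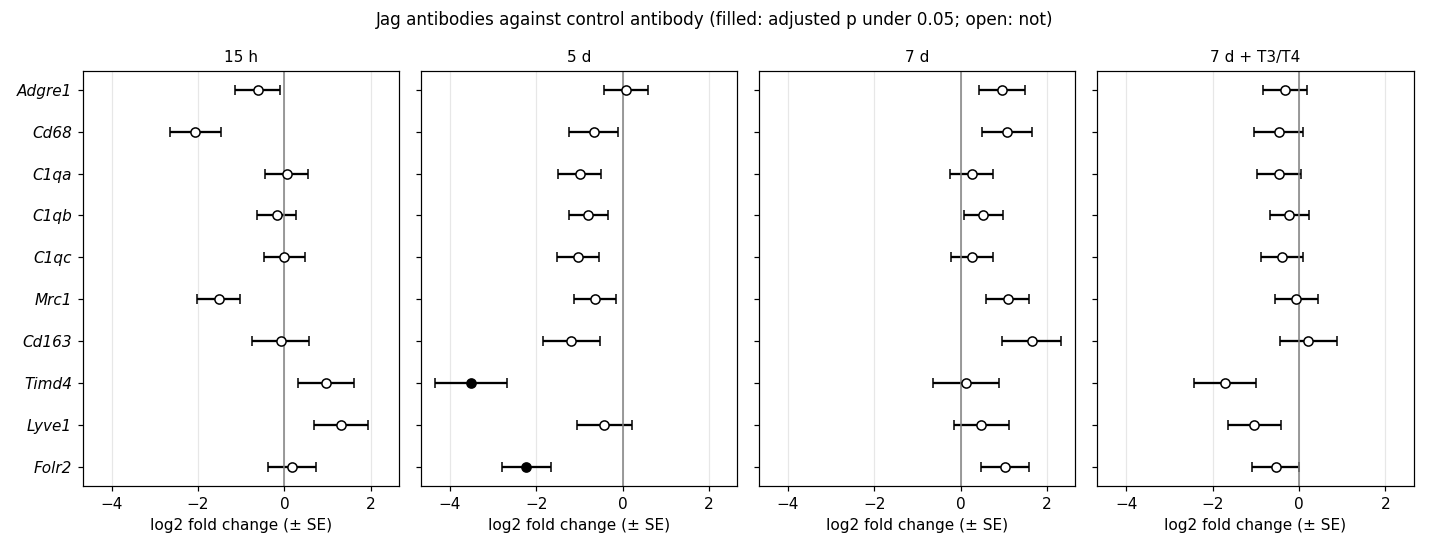
Log2 fold change of Jag antibody over control mice for each member in the 4 antibody comparisons, with standard errors. The 5 d estimates are below 0 for 9 of 10 members and the 7 d estimates above 0 for all 10, and the filled calls are Timd4 and Folr2 at 5 d.

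Control mice were also compared over time, with all times counted from the isotype antibody. From 15 h to 5 d, C1qa, C1qc and Folr2 rose and Cd68 fell, 4 of 10 members, where 36.4% of all genes tested changed, so the members' share was near that of all genes. C1qc rose by 1.71 (SE 0.50, adjusted p = 0.00883), C1qa by 1.43 (adjusted p = 0.0273) and Folr2 by 1.50 (adjusted p = 0.0343), and Cd68 fell by 1.68 (adjusted p = 0.0241, all by edgeR). Without control mice 2 and 3 at 15 h, Cd68 stood at 0.17, while C1qa, C1qc and Folr2 stood at 1.48, 1.81 and 1.77, as large as with them but no longer past the threshold (adjusted p = 0.108, 0.0525 and 0.0795 by edgeR). With offsets for gene length and GC content, C1qa, C1qc and Folr2 stood at 0.34, 0.96 and 0.97 and did not pass (adjusted p = 0.544, 0.075 and 0.179 by edgeR). With the muscle score as a covariate the same 3 genes stood at 0.66, 0.97 and 0.33 and did not pass. The 2 members then called were lower, Cd68 at -2.01 and Lyve1 at -1.55. The muscle score was -1.82 to 10.2 in control mice at 15 h and 5.1 to 13.7 at 5 d, and its part in the result was not tested. Without 15 h mouse 3 alone 1 member was called, and without 5 d mouse 3 or 5 there were 2.

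From 5 d to 7 d, 4 of 10 members fell in control mice, Adgre1, C1qb, Mrc1 and Folr2, where 4.42% of all genes tested were lower. Folr2 fell by 2.44 (adjusted p = 0.00911), Adgre1 by 1.95 (adjusted p = 0.0218), Mrc1 by 1.64 (adjusted p = 0.0366) and C1qb by 1.61 (adjusted p = 0.026, all by edgeR). All 10 estimates were below 0, with a median of -1.63. The muscle score was 5.1 to 13.7 in control mice at 5 d and -1.31 to 11.1 at 7 d, and with it as a covariate 0 members were called. The estimates were then -1.66 for Adgre1, -1.40 for Mrc1, -1.21 for C1qb and -1.54 for Folr2, with adjusted p of 0.1, 0.159, 0.142 and 0.0871 by edgeR. Leaving out 1 mouse gave 1 to 7 calls, with 1 without 5 d mouse 3 or 7 d mouse 2, and 7 without 5 d mouse 2. The control 5 d and control 7 d groups also enter the antibody comparisons, so these values are not independent of those above.

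The C1q genes lie side by side on chromosome 4 (GRCm38), all on the minus strand, in the order C1qb (ENSMUSG00000036905, 4:136880129-136886187), C1qc (ENSMUSG00000036896, 4:136889804-136893065) and C1qa (ENSMUSG00000036887, 4:136895917-136898803), over 18675 bp with gaps of 3616 and 2851 bp. The other members lie on other chromosomes or apart from each other: Adgre1 (ENSMUSG00000004730) at 17:57358691-57483527, Cd68 (ENSMUSG00000018774) at 11:69664213-69666153, Mrc1 (ENSMUSG00000026712) at 2:14229392-14332057, Cd163 (ENSMUSG00000008845) at 6:124304656-124330527, Timd4 (ENSMUSG00000055546) at 11:46810800-46844332, Lyve1 (ENSMUSG00000030787) at 7:110850607-110863239 and Folr2 (ENSMUSG00000032725) at 7:101839988-101857194. C1qa, C1qb and C1qc followed each other most closely of all members: over the 40 mice their pairwise Pearson r was 0.93 to 0.97, and 0.95 to 0.98 on deviations from the group means. Per length, C1qa was a median of 0.831 of C1qb (0.467 to 1.23) and C1qc 0.348 of C1qb (0.221 to 0.591). The ratios between the chains ranged less than their levels, but they differed between control 7 d and control hormone mice. C1qa was 0.951 to 1.19 of C1qb in control 7 d and 0.658 to 0.875 in control hormone mice. C1qc was 0.394 to 0.591 and 0.29 to 0.359 of C1qb in the same groups. Neither ratio overlapped between these groups, and the cause was not tested.

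Because the C1q genes move together, sequence before C1qb and C1qc is shown, from RefSeq on GRCm38.p6, 5′ to 3′ on the genes' minus strand. For C1qb these are the 250 bases before the RefSeq start, chr4:136886201-136886450. RefSeq starts C1qc further inside the gene than GENCODE does, so 151 of its 250 bases lie within the GENCODE gene, and the 99 bases outside it are shown, chr4:136893066-136893164. Capitals mark GAGGAA, the core of the motif of the macrophage transcription factor PU.1, or TTCCTC, the same letters on the opposite strand.
C1qb: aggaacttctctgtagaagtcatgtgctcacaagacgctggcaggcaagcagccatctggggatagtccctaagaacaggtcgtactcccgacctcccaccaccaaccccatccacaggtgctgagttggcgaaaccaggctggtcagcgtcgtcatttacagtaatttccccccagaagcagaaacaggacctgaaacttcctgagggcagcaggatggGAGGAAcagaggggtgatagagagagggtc
C1qc: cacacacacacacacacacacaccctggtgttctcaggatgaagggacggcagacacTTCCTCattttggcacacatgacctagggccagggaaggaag
Motifs were searched in the 250 bases before each RefSeq start. The table held promoters for 7 of the 10 members, in 8 entries (Adgre1, C1qa and Lyve1 were not in it). GAGGAA on either strand was found in 4 of the 7, Cd68, C1qb, C1qc and Mrc1, and in 23.3% of all 32851 promoters of that length. The longer GAGGAAGT, which contains GAGGAA, was found in 1, C1qc, as ACTTCCTC, and in 2.44% of all promoters. The MAF motif TGCTGACT was found in 0 of the 7 and in 1.2% of all promoters. A match describes the letters only, and shows neither binding nor a cause.

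Over the 40 mice, the 45 pairs of members had a Pearson r of 0.09 to 0.97, with a median of 0.51, and on deviations from the group means -0.15 to 0.98, with a median of 0.56. The libraries share their depth and scaling, so these values are descriptions and carry no test. Cd163, Timd4 and Lyve1 were related to each other at 0.51 to 0.72 on deviations. Against Adgre1, Cd68 and the C1q genes they stood at -0.15 to 0.24. Folr2 and Mrc1 were in neither set: Folr2 stood at 0.40 to 0.66 with the first and 0.56 to 0.74 with the second, and Mrc1 at 0.13 to 0.63 and 0.44 to 0.66. This grouping was made after the values were seen. Lyve1 and Cd68 had a highly variable ratio, from -8.36 to -0.81 on the log2 scale of RPKM ratios, with a median of -3.55. The lowest was control hormone mouse 4.

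**Figure D5:**
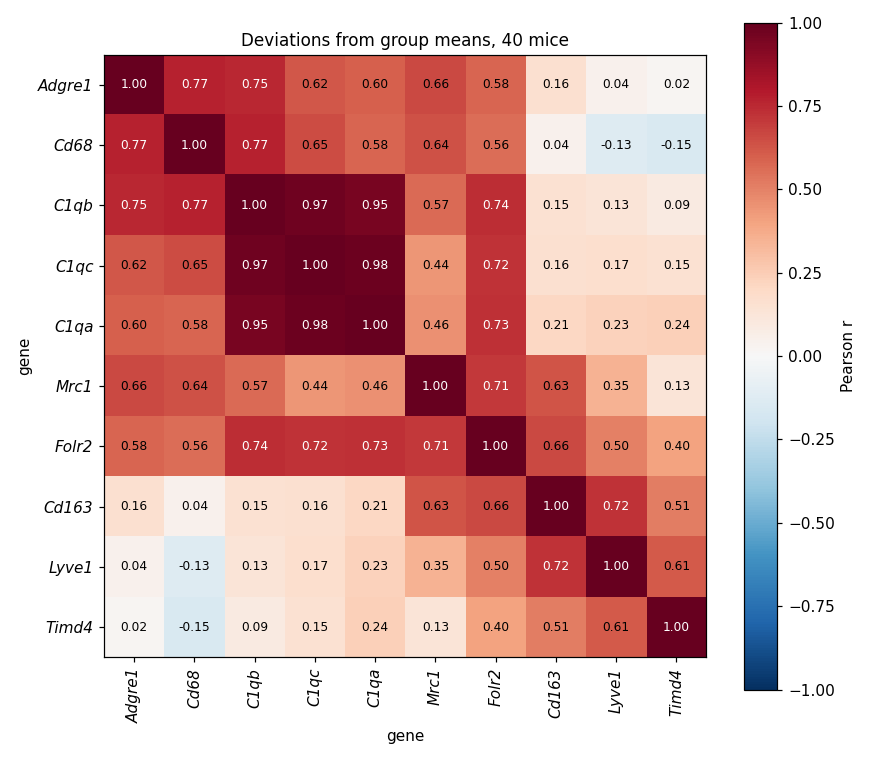
Pearson r between members over the 40 mice, on deviations of log2 CPM from the group means. C1qa, C1qb and C1qc form the tightest block, at 0.95 to 0.98, and Cd163, Timd4 and Lyve1 are related to each other at 0.51 to 0.72 and to Adgre1, Cd68 and the C1q genes at -0.15 to 0.24, while Folr2 is related to both at 0.40 to 0.74.

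The genes whose level over the 40 mice was most like the mean of the members, among 12131 genes compared, were Tbxas1 (Pearson r 0.86), Cfp (0.85), Nup210 (0.84), F13a1 (0.83) and Slc9a9 (0.83). On deviations from the group means they were Slc9a9 (0.88), Clec10a (0.88), Cbr2 (0.85), Csf1r (0.83) and Ecm1 (0.80).

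Related lists of genes give the setting of these members, as counts and with no test of a list. With hormone in control mice, 20.3% of the 17079 genes tested were higher and 3915 genes were lower. Of 10 macrophage growth factors and transcription factors, 8 rose and 1 fell. Csf1r, the receptor for the macrophage growth factor CSF1, rose by 2.00 (SE 0.41, adjusted p = 0.0003), Csf1 by 1.69 (adjusted p = 0.00581) and the transcription factor Spi1 (PU.1) by 2.58 (adjusted p = 0.000821), whereas Nr1h3, the oxysterol receptor LXR alpha, fell by 1.15 (adjusted p = 5.57e-05, all by edgeR). General macrophage genes rose in 7 of 10, other resident macrophage genes in 7 of 9, complement partners of C1q in 4 of 8 and lipid-associated macrophage genes in 7 of 8. With the muscle score as a covariate, 2 complement partners rose. Monocyte genes rose in 5 of 6, among them Ly6c2 at 3.94 (adjusted p = 0.0023) and Ccr2, the chemokine receptor of blood monocytes, at 3.23 (adjusted p = 0.000144, both by edgeR). All 5 proliferation genes rose, with a median of 3.51, and 5 of 6 brown adipocyte genes fell. Neutrophil, lymphocyte and skeletal muscle genes gave 0 calls among 5, 6 and 8 tested by edgeR, 0 at an unadjusted p under 0.05 and 0 by DESeq2. Dendritic cell genes rose in 2 of 4 and blood endothelial genes in 4 of 5 (1 fell). Of 5 tested lymphatic endothelial genes 1 rose, Flt4 at 1.25, a share near that of all genes. The lymphatic gene Ccl21a was listed at 0 in every library.

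With the Jag antibodies at 5 d, 5.93% of all genes tested were lower. Of 9 other resident macrophage genes 3 fell. These were the C-type lectin Cd209f by 4.38 (SE 0.84, adjusted p = 0.00336), Cbr2 by 1.90 (adjusted p = 0.027) and Gas6, a bridging ligand for the engulfment receptors, by 1.55 (adjusted p = 0.00838, all by edgeR). Of 8 complement partners 3 fell, C4b by 3.23, C2 by 1.96 and Serping1 by 1.15. Without control 5 d mouse 5, Cbr2 (-1.42), C2 (-1.23) and Serping1 (-0.97) no longer passed. The call of C2 was also lost without Jag 5 d mouse 9 or 10, and that of Cbr2 without control 5 d mouse 3 or Jag 5 d mouse 6, 8, 9 or 10. With the muscle score as a covariate these lists had 0 calls by edgeR, and 2 and 1 genes at an unadjusted p under 0.05. General macrophage, lipid-associated macrophage and monocyte genes had 0 calls at 5 d by edgeR, 0 at an unadjusted p under 0.05 and 0 by DESeq2. For growth factors and transcription factors the counts were 0, 5 and 1. At 7 d without hormone 207 of the 17079 genes tested were higher. Of 8 lipid-associated macrophage genes 3 rose, Mmp12 by 4.37, Atp6v0d2 by 3.74 and Gpnmb by 2.81. Clec10a rose by 2.33 among the other resident genes, while 0 of the 10 members were called. Jag 7 d mouse 6 stood apart in the lipid-associated list, at 488 summed CPM against 65.7 to 108 CPM in the other 4 Jag antibody mice and 34.5 to 91.8 CPM in control mice. Without it Mmp12 stood at 2.28, Atp6v0d2 at 2.02, Gpnmb at 1.78 and Clec10a at 1.43, and each call was lost (adjusted p = 0.135 to 0.197 by edgeR). Without control 7 d mouse 2 the calls of Atp6v0d2, Gpnmb and Clec10a were lost too (3.58, 2.71 and 2.20), and that of Clec10a also without control 7 d mouse 1 or 4 or Jag 7 d mouse 10 (2.31 to 2.40).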

How the data were processed

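Brown adipose RNA of 40 mice was read as 50 bp single-end reads. The authors deposited raw counts per Ensembl gene and, in a table of its own, FPKM values. GSNAP and limma are listed in the submitters' processing notes, without roles or versions. The counting program, genome build and use of strand are not given in the sources used here. Genes were named and measured for exon length with GENCODE M21 (GRCm38); 52403 of the 52636 identifiers had a symbol. Whether mice were pooled or litter mates is not stated.

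Counts were tested with edgeR 4.0.16 (R 4.3.3): low counts filtered over the 8 groups, TMM scaling, 1 robust quasi-likelihood fit of all 40 mice, Benjamini-Hochberg adjustment over 17079 genes, threshold 0.05. Levels are log2 CPM with a prior count of 2. The comparisons number 9: the antibody in 4 settings, hormone within each antibody, their interaction, and control mice over time. Alternatives were other scalings, no filter, only the compared groups, a muscle covariate, offsets for length and GC content, the replicate number as a block, DESeq2 1.42.0, limma 3.58.1 on log2(FPKM + 1), and leaving out each mouse. In simulated counts for hormone in control mice over 17079 genes, 9 of 100 genes changed 2-fold and 78 of 100 changed 4-fold were called. In the data 7378 genes were called in that comparison, far more than were changed in the simulation. The simulated shares therefore do not give the rate at which small changes were missed in the data. Titles give mice their numbers and groups.

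All 10 members were named in every comparison, with any gene of 14 related lists and the 5 genes most like the members by each measure. The members and lists were chosen with earlier results of these data known. The following alternatives were added after seeing the data: the muscle covariate with offsets, and leaving out control mice 2 and 3 at 15 h.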

Additional observations from a re-analysis of the deposited data

Results flagged for a closer look

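In 8 of the 80 combinations of member and group, 1 mouse stood apart from the other 4 (gap to the nearest mouse over the group's range above 0.71). Chance flags about 1 in 20 such groups, and members that move together are not separate events. Jag 7 d mouse 6 was the highest for Adgre1 (5.35 log2 CPM, next mouse 3.37), Cd68 (6.05, next 4.08), C1qb (7.23, next 5.53) and C1qc (6.81, next 5.03). This library had a skeletal muscle score of 12.33. Control 7 d mouse 4 was the highest for C1qa (6.39, next 5.16), C1qb (6.34, next 5.28) and C1qc (6.41, next 4.92). Its library had the lowest total (12217623 counts), TMM factor (0.647) and slope on exon length (-0.542) of all 40. The part of these measures in its C1q values was not tested. Jag hormone mouse 7 was the highest for Cd68 (6.95, next 5.56).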

How the results depend on the processing

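Of 1930 refitted member changes, 3 reversed among called changes, 72 lost a call, 63 gained one, and 63 that were called in neither fit changed sign. The 3 reversals were in control mice from 15 h to 5 d: C1qa at -0.28 and Folr2 at -0.01 with the muscle covariate and offsets, and Cd68 at 0.17 leaving out control mice 2 and 3; the cause was not tested. Hormone in control mice gave 7 to 10 members called over 11 alternatives and 7 to 9 with a mouse left out. The antibody at 7 d, with or without hormone, and the interaction gave 0 under every alternative run.

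Members called by the antibody at 15 h went from 0 to 1 with offsets, with offsets and the muscle covariate, and by DESeq2, and were 0 to 2 with a mouse left out (2 without control mouse 1). At 5 d they went from 2 to 0 with the muscle covariate, alone or with offsets, and to 1 by limma on FPKM, and were 1 to 2 with a mouse left out. Hormone in Jag antibody mice went from 1 to 0 by library totals, no filter, only the compared groups and limma, to 2 with offsets and by DESeq2, to 4 with offsets and the muscle covariate, and was 0 to 5 with a mouse left out. From 15 h to 5 d, 4 became 2 by library totals, no filter, the muscle covariate and limma, 1 with offsets, alone or with the muscle covariate, and 0 with only the compared groups or leaving out control mice 2 and 3, and 1 to 5 with a mouse left out. From 5 d to 7 d, 4 became 7 by library totals, offsets and DESeq2, 2 with only the compared groups and limma, 0 with the muscle covariate, 1 with that and offsets, and 1 to 7 with a mouse left out. The mean of Timd4 in Jag 5 d mice was -3.75 with a prior count of 0.5 and -2.61 with 2.

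Library totals moved the median of all genes from 0.04 to 0.48 for hormone in control mice, and the share of calls that were higher from 46.9 to 77.8%. The shares were 48.5 and 83.6% for the antibody at 7 d, 45.1 and 63.1% for hormone in Jag antibody mice, 44.6 and 30.6% from 15 h to 5 d, and 51.6 and 12% from 5 d to 7 d.

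Mice with the same number are different animals. The correlation of their deviations was -0.36 to 0.67 over 20 pairs, with a median of 0.19 and 12 of them above 0.1. Mice with different numbers were not compared in this way, so whether the number stands for a shared factor was not tested. With the replicate number as a block, 9 members were called for hormone in control mice, 1 for hormone in Jag antibody mice, 0 for the interaction, 5 from 15 h to 5 d and 7 from 5 d to 7 d. With the block and offsets the counts were 10, 3, 0, 2 and 7.

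Depth limits Timd4 most, since it had 0 to 128 counts per library.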
